A study of Mus musculus with 9 samples.

Results

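The 10 genes described here, Myd88, Irak1, Irak2, Irak3, Irak4, Traf6, Traf3, Unc93b1, Map3k7 and Tab2, encode the adaptor, kinases, ubiquitin ligases and chaperone that carry the Toll-like receptor 7 signal inside the cell. They were chosen by name, from 52476 gene symbols or unmatched identifiers in the deposited tables, and each was found under 1 Ensembl identifier. All 10 passed the filter on low values, an FPKM (fragments per kilobase of transcript, relative to all fragments mapped) of 1 or more in at least 3 libraries, among 11768 genes that did. The 9 mRNA-seq libraries came from C57BL/6 mouse monocyte-derived dendritic cells: marrow monocytes kept in GM-CSF (100 ng/mL) with IL-4 (50 ng/mL) over 7 days, then sorted by flow cytometry. In 3 libraries the cells had been given R837 (imiquimod, a synthetic ligand that activates Toll-like receptor 7) together with spermidine, a natural polyamine. In 3 others they had been given R837 alone, and 3 were controls without stimulation. Per the labels' protocols, R837 with or without spermidine was given for 18 h after 24 h of priming with interferon α. Whether the controls received interferon α as well is not stated, so R837 and priming cannot be told apart in comparisons with the controls. Nothing says that replicates were separate cultures or animals. So p-values cover only the spread from library to library, which may be technical.

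Toll-like receptors 7 and 9 sense RNA and DNA in endosomes, and UNC93B1 is the membrane protein that escorts them there from the endoplasmic reticulum. An engaged receptor gathers MYD88, to which the kinase IRAK4 binds, followed by IRAK1 and IRAK2. IRAK1 and IRAK2 recruit TRAF6, a ubiquitin ligase whose chains are read by TAB2, which brings the kinase TAK1 (encoded by Map3k7) to activate the IKK complex and the MAP kinases. TRAF3 serves the arm that leads to interferon genes and restrains MAP kinase activation. IRAK3, also called IRAK-M, lacks effective kinase activity and holds back signalling from MYD88, so that it stands as a brake among activators.

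The 250 bases before the transcription start were read for 9 of the 10 genes (12 promoters in all; Unc93b1 is named only), from RefSeq on GRCm38.p6. They are shown for Irak3, the brake, and for Myd88, Traf3 and Tab2, the other genes that were higher with R837. Each runs 5′ to 3′ on the gene's own strand and ends at the base before the start. Capitals mark matches to the interferon-stimulated response element core (2 GAAA blocks with any 2 bases between them) or to the NF-κB motif, searched on both strands together with the AP-1 site TGANTCA.
Myd88, chr9:119340019-119340268, minus strand: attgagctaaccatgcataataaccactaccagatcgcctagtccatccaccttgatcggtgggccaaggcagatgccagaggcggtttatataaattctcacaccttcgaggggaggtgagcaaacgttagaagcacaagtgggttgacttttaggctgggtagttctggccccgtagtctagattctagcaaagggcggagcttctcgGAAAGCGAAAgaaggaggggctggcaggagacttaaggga
Traf3, chr12:111166120-111166369, plus strand: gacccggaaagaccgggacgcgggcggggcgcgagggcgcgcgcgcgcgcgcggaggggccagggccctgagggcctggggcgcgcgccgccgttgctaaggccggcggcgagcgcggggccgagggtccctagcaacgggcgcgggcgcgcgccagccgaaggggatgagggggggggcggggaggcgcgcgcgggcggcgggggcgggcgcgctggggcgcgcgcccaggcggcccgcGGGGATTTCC
Irak3, first start, chr10:120202131-120202380, minus strand: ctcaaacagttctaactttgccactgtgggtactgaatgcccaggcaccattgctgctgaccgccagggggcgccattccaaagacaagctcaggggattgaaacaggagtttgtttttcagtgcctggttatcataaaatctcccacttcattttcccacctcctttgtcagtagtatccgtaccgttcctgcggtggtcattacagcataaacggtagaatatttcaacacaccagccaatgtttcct
Irak3, second start, chr10:120201598-120201847, minus strand: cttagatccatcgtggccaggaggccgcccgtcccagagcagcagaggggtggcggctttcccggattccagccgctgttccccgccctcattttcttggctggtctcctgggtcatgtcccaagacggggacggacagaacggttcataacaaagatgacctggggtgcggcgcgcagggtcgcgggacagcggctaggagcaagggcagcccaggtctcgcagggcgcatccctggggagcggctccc
Tab2, first start, chr10:7956124-7956373, minus strand: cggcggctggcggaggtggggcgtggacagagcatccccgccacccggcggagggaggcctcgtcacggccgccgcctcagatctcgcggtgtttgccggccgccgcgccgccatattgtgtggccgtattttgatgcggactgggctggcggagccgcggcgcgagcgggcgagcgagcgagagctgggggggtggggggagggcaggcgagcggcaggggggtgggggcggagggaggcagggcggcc
Tab2, second start, chr10:7953066-7953315, minus strand: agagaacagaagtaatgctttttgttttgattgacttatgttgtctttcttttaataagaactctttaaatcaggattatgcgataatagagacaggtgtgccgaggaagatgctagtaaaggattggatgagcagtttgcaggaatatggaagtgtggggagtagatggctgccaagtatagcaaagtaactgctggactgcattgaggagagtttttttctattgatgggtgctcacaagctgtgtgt
The Myd88 promoter held 1 interferon-stimulated response element core, GAAAGCGAAA, 40 to 31 bases before the start. The Traf3 promoter ended in an NF-κB motif, GGGGATTTCC, in the last 10 bases. Map3k7 also had a match, the NF-κB motif GGAAATTCCC at 92 to 83 bases before its start. Neither the Irak3 nor the Tab2 windows held any of the 3 motifs, and no AP-1 site was found in the 12 promoters. The bases soon after the second Tab2 start were not found in the GENCODE M21 transcripts of the gene, unlike those of the other starts. Among 32851 mouse promoters of the same length 2.98% held the response element core, 3.90% the NF-κB motif and 6.75% the AP-1 site. A match is a description of the letters only.

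Depth read from the low FPKM values was 10700000 to 14700000 units per library, a rough estimate. It corresponds to at least 215 units behind any value of the 10 genes (Irak4, with a counting error of 6.82%). Of 8 markers fixed for monocyte-derived dendritic cells 6 reached 1 FPKM in 3 or more libraries, while Cd209a was listed at 0 in all 9 and Flt3 stayed at or below 0.418 FPKM. Of the 6, Zbtb46 reached 1 FPKM only in treated libraries, and stood at 0.483, 0.737 and 0.568 FPKM in controls. All 6 macrophage markers reached that level, with sums of 317 to 333 FPKM with R837 and spermidine, 229 to 313 FPKM with R837, and 306 to 320 FPKM in controls. The markers within this sum moved in different directions. Mertk stood at 7.32 to 8.95 FPKM in treated libraries and 18.2 to 21.8 FPKM in controls. Fcgr1 stood at 21.1 to 29.4 FPKM and 31.2 to 35.6 FPKM. Adgre1 was above the controls in all treated libraries but R837 replicate 2. C1qa, C1qb and Mrc1 overlapped between treated libraries and controls. None of the markers of plasmacytoid dendritic cells, T and NK cells or B cells reached 1 FPKM in 3 or more libraries. Of 4 mast cell and basophil markers 1 did, Mcpt8. The sums of these 4 were 2.49 to 2.97 FPKM with R837 and spermidine, 1.53 to 3.16 FPKM with R837, and 5.43 to 8.01 FPKM in controls. Erythroid markers set R837 replicates 2 and 3 apart, and neutrophil and B cell markers set replicate 3 apart. The summed B cell markers stood at 3.83 FPKM in R837 replicate 3 and at no more than 0.603 FPKM in any other library. Hba-a1 stood at 0, 72.4 and 487 FPKM in R837 replicates 1, 2 and 3, and the summed erythroid markers at no more than 0.247 FPKM with R837 and spermidine and 5.27 FPKM in controls. The summed neutrophil and precursor markers stood at 34.1 to 38.7 FPKM with R837 and spermidine, 43.6, 45.2 and 247 FPKM in R837 replicates 1, 2 and 3, and 36.7 to 45.5 FPKM in controls. R837 replicate 2 also had the lowest Itgam and Adgre1, 37.1 and 71.6 FPKM. Where leaving out replicate 2 or 3, or both, changed a call or moved a called value by over 1.5 times, that value is given beside the result. This covers the 10 genes, and pathway genes named here in the comparison where they were called. Other pathway genes, such as Tlr7, were not checked in this way.

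With R837, 4 of the 10 genes were higher than in the controls and 1 was lower (limma adjusted p below 0.05). Irak3, the brake, rose 3.90-fold in mean FPKM and had the largest log2 change of the 10. Myd88, Traf3 and Tab2 rose by much less, and Irak1 fell slightly. Over all 11768 genes tested 13.6% were called higher and 29.5% lower in this comparison. The median log2 change of the 10 was 0.13, against -0.17 for all genes. Libraries of R837 and control did not overlap for 6 of the 10, against 54% of all genes. In bulk libraries, fewer cells of a type and less RNA per cell cannot be told apart.

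**Figure D1:**
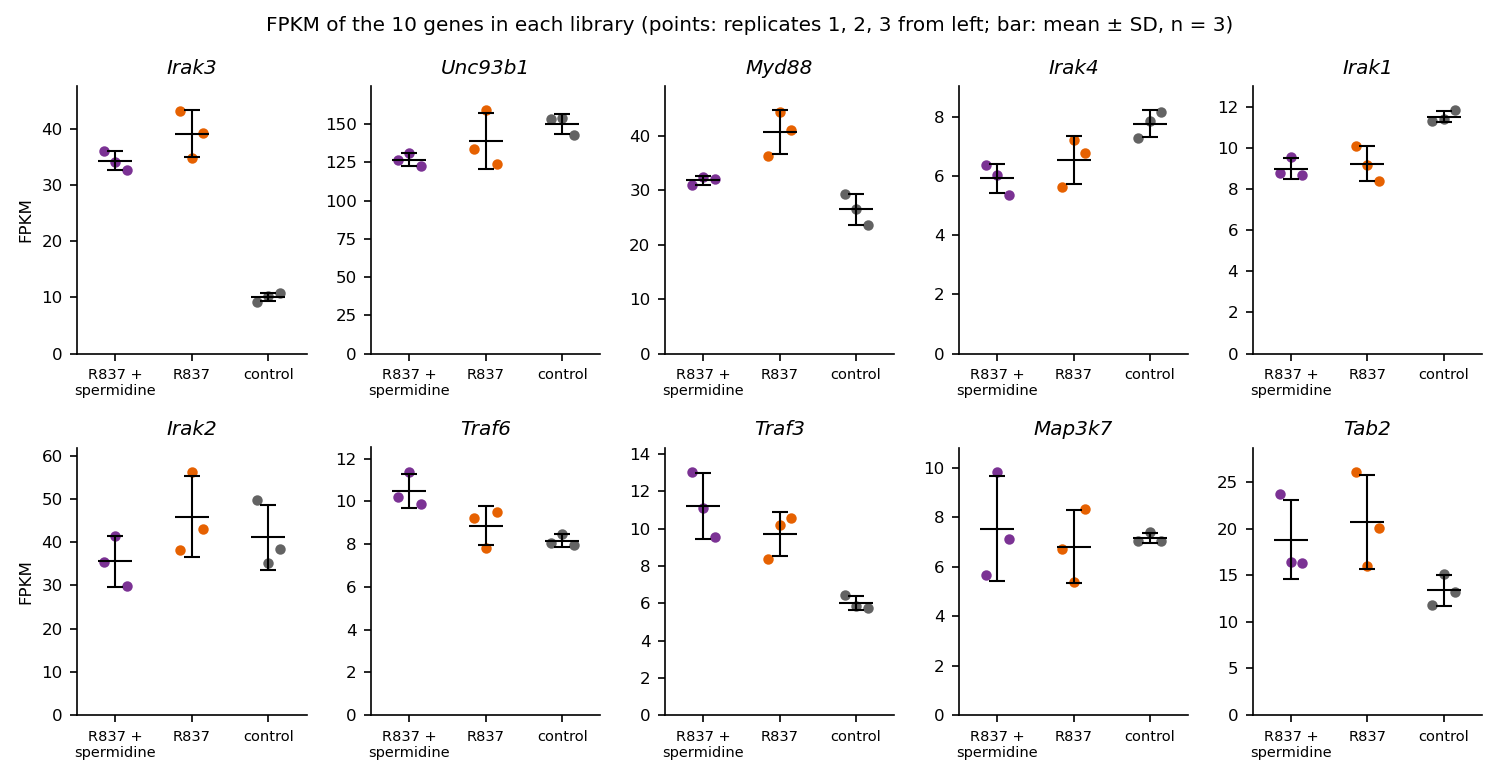
FPKM of each of the 10 genes (one panel each, y axes from 0) in R837 with spermidine, R837 and control libraries. Points are single libraries and bars the mean ± SD of 3. Irak3 stands at 32.8 FPKM or more in all 6 treated libraries and at 10.7 FPKM or less in the controls.

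Irak3 (ENSMUSG00000020227.10, chromosome 10, 120141648 to 120202130 on the minus strand of GRCm38) had 36.2, 34.2 and 32.8 FPKM with R837 and spermidine, 43.3, 34.9 and 39.3 FPKM with R837, and 9.23, 10.2 and 10.7 FPKM in controls. All 6 treated libraries stood well above the 3 controls, and the treated groups overlapped each other. The log2 change of FPKM + 1 with R837 over control was 1.86 ± 0.09 (SE; 95% interval 1.64 to 2.07; limma adjusted p = 7.57e-07). Only 1.57% of the genes tested had a larger one. The rise was 1.94 without R837 replicate 2, 1.85 without R837 replicate 3 and 2.01 with R837 replicate 1 alone (limma adjusted p = 1.06e-06, 9.52e-06 and 2.26e-05). Irak3 shares 192 exon bases (5.22% of its own) with Tmbim4 on the opposite strand. Use of strand in the counting is not given in the sources used here, so reads there cannot be told apart. Tmbim4 averaged 25.5, 25.3 and 22.7 FPKM in R837 with spermidine, R837 and control libraries.

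Unc93b1 (chromosome 19, 3935186 to 3949340, plus strand), the chaperone upstream of the adaptor, was the most abundant of the 10 in every library. It had 126, 131 and 123 FPKM with R837 and spermidine, 134, 159 and 124 FPKM with R837, and 154, 154 and 143 FPKM in controls. R837 and control libraries overlapped, with R837 replicate 2 the highest of all 9. The log2 change with R837 over control was -0.12 (95% interval -0.33 to 0.09; limma adjusted p = 0.338). Without R837 replicate 2 it was -0.22 and passed (limma adjusted p = 0.0204), and with quantile normalization it was -0.32 and passed (0.0245). With median-of-ratios scaling it was 0.065, of the opposite sign.

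Myd88 (ENSMUSG00000032508.8, chromosome 9, 119335934 to 119341411, minus strand), the adaptor itself, had 30.9, 32.4 and 32.1 FPKM with R837 and spermidine, 36.4, 44.4 and 41.1 FPKM with R837, and 29.3, 26.5 and 23.7 FPKM in controls. The 3 groups did not overlap, with R837 highest, the combination between and the controls lowest. The rise with R837 over control was 0.60 ± 0.10 on the log2 scale (SE; limma adjusted p = 0.00116), and it passed with R837 replicate 1 alone as 0.45 (limma adjusted p = 0.0221). Myd88 shares 290 exon bases (11.3%) with the oppositely oriented Acaa1a. Acaa1a averaged 13.5 ± 1.56, 13.4 ± 1.61 and 12.9 ± 1.44 FPKM in R837 with spermidine, R837 and control libraries (SD, n = 3 each).

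Of the activating kinases, Irak1 alone passed, as a fall. Irak4 (chromosome 15, 94543643 to 94581815, plus strand), the first kinase of the complex, had 6.37, 6.04 and 5.38 FPKM with R837 and spermidine, 5.65, 7.21 and 6.79 FPKM with R837, and 7.28, 7.89 and 8.17 FPKM in controls. Every R837 library was below every control, but the log2 change of -0.22 (95% interval -0.45 to 0.01) did not pass (limma adjusted p = 0.105). It passed without R837 replicate 2 as -0.28 and with R837 replicate 1 alone as -0.40 (limma adjusted p = 0.0458 and 0.0313). Irak4 shares 395 exon bases (7.87%) with Twf1 on the other strand, which averaged 24.0, 22.5 and 22.4 FPKM in R837 with spermidine, R837 and control libraries.

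Irak1 (X chromosome, 74013914 to 74023918, minus strand), a kinase that IRAK4 phosphorylates, had 8.79, 9.59 and 8.68 FPKM with R837 and spermidine, 10.1, 9.21 and 8.43 FPKM with R837, and 11.3, 11.4 and 11.9 FPKM in controls. All 6 treated libraries lay below the controls. The log2 change with R837 over control was -0.29 ± 0.08 (SE; limma adjusted p = 0.0179), against the median of -0.17 over all genes. The call was lost without control replicate 2 or 3 or R837 replicate 3 (limma adjusted p = 0.0501, 0.0604 and 0.0559), with R837 replicate 1 alone (0.164), and with median-of-ratios scaling, under which the change was -0.13 (0.290), or quantile normalization (0.0801).

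Irak2 (chromosome 6, 113638467 to 113695026, plus strand), the kinase that sustains the response in mouse macrophages, had 35.3, 41.5 and 29.8 FPKM with R837 and spermidine, 38.2, 56.3 and 43.2 FPKM with R837, and 49.7, 35.3 and 38.5 FPKM in controls. The groups overlapped throughout, and R837 replicate 2 was the highest of the 9. The log2 change of 0.15 (95% interval -0.25 to 0.55; limma adjusted p = 0.521) was -0.0041 without that library.

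Irak3 therefore took a larger share of the IRAK transcripts. Of the summed FPKM of the 4 IRAK genes, Irak3 made up 40.7 ± 2.81% with R837 and spermidine, 39.1 ± 6.13% with R837 and 14.4 ± 2.15% in controls (SD, n = 3 each). Irak2 made up 41.7 ± 3.36% with R837 and spermidine, 45.2 ± 6.59% with R837 and 58.0 ± 5.27% in controls. Irak1 stood at 10.7 ± 0.606%, 9.20 ± 1.04% and 16.5 ± 1.62% in R837 with spermidine, R837 and control libraries. The lowest Irak3 share of a treated library, 32.4% in R837 replicate 2, was above the highest of a control, 15.7%. The summed FPKM of the 4 was 84.9 ± 7.48 with R837 and spermidine, 100.9 ± 5.88 with R837 and 70.5 ± 6.43 in controls, and its lowest R837 library (97.3) lay above the highest control (77.5).

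**Figure D2:**
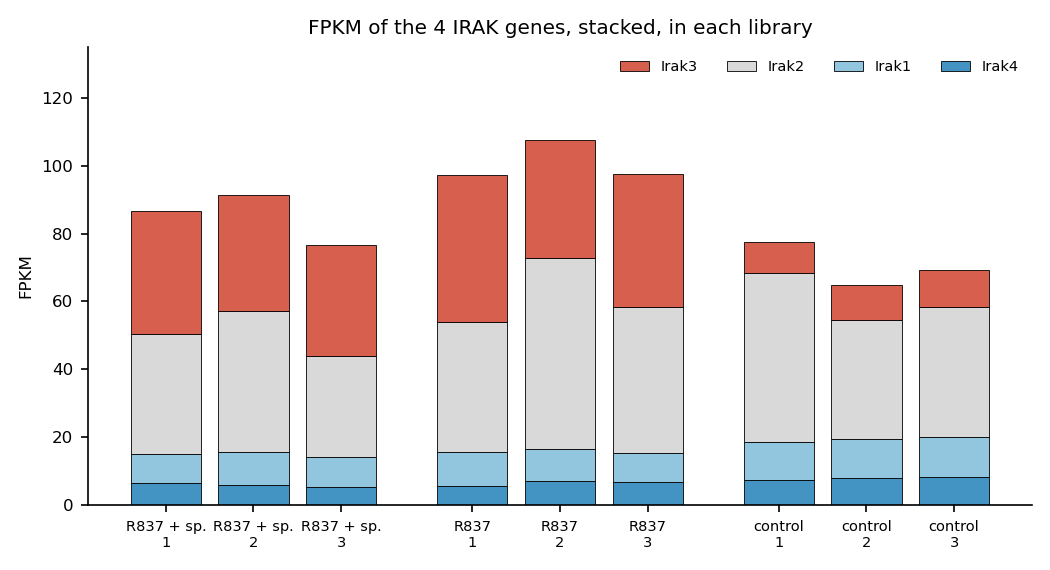
Stacked FPKM of Irak3, Irak2, Irak1 and Irak4 (y axis, FPKM, from 0) in each of the 9 libraries, R837 with spermidine on the left, then R837, then control. The Irak3 segment is 32.8 FPKM or more in the 6 treated libraries and 10.7 FPKM or less in the controls.

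Of the ubiquitin ligases below the kinases, Traf3 passed and Traf6 did not, and the difference between them was not tested. Traf3 (chromosome 12, 111166370 to 111267153, plus strand) had 13.1, 11.1 and 9.54 FPKM with R837 and spermidine, 8.39, 10.2 and 10.6 FPKM with R837, and 6.44, 5.87 and 5.72 FPKM in controls. All 6 treated libraries were above the controls. The rise with R837 over control was 0.61 ± 0.12 on the log2 scale (SE; limma adjusted p = 0.00357). With R837 replicate 1 alone it was 0.42 and did not pass (limma adjusted p = 0.0750).

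Traf6 (chromosome 2, 101678429 to 101701669, plus strand) had 10.2, 11.4 and 9.91 FPKM with R837 and spermidine, 9.24, 7.81 and 9.53 FPKM with R837, and 8.07, 8.49 and 7.95 FPKM in controls. R837 and control libraries overlapped, while the 3 libraries with spermidine were the highest of the 9. The log2 change with R837 over control was 0.10 (95% interval -0.11 to 0.31; limma adjusted p = 0.398).

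Tab2 (chromosome 10, 7905653 to 7956230, minus strand), which reads the TRAF6 chains, had 23.7, 16.4 and 16.3 FPKM with R837 and spermidine, 26.1, 16 and 20.1 FPKM with R837, and 11.8, 15.1 and 13.2 FPKM in controls. The treated libraries lay above the controls, by a narrow margin in R837 replicate 2. Tab2 rose by 0.58 ± 0.19 on the log2 scale with R837 over control (SE; limma adjusted p = 0.0367). The call was lost, with changes of 0.50 and 0.57, without control replicate 1 or 3 (limma adjusted p = 0.115 and 0.0852), and, with 0.41 and 0.59, without R837 replicate 1 or 3 (0.116 and 0.0714). With no filter the same change of 0.58 had an adjusted p of 0.0865, and with R837 replicate 1 alone the rise was 0.92 and passed (limma adjusted p = 0.0171).

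Map3k7 (chromosome 4, 31964097 to 32023467, plus strand), the TAK1 kinase gene, had 5.65, 9.84 and 7.14 FPKM with R837 and spermidine, 6.71, 5.37 and 8.34 FPKM with R837, and 7.05, 7.41 and 7.02 FPKM in controls. The controls sat within the range of both treated groups. The SD was 28.2% of the mean with R837 and spermidine and 21.8% with R837, against 3.04% in controls. The log2 change with R837 over control was -0.08 (95% interval -0.50 to 0.33; limma adjusted p = 0.744), and it took the opposite sign with median-of-ratios scaling (0.079) and quantile normalization (0.048) but not as TPM.

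The level of Irak3 relative to each of the other 9 genes, compared per length as FPKM in the same library, was higher with R837 than in controls for 9 of 9, with no overlap of libraries in any. The geometric mean ratio was 2.41 times as high (against Traf3) to 4.86 times as high (against Irak1), with a median of 3.6 over the 9. Irak3 stood at 1.17, 1.06 and 1.02 times Myd88 with R837 and spermidine, at 1.19, 0.786 and 0.955 times with R837, and at 0.315, 0.385 and 0.454 times in controls. It was thus close to the adaptor in treated cells and below it by more than a factor of 2 in controls. Against Irak4 the ratio was 5.68, 5.66 and 6.09 with R837 and spermidine, 7.67, 4.84 and 5.78 with R837, and 1.27, 1.29 and 1.31 in controls. The controls were the most alike, and R837 replicate 1 the highest. The 9 ratios share the Irak3 value of each library and are not independent of each other. Only 1.57% of all genes tested had a larger log2 change with R837 over control than Irak3. A higher ratio of Irak3 to most genes thus follows from its own rise. The share of all genes with a higher ratio, or without overlap, was not computed.

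**Figure D3:**
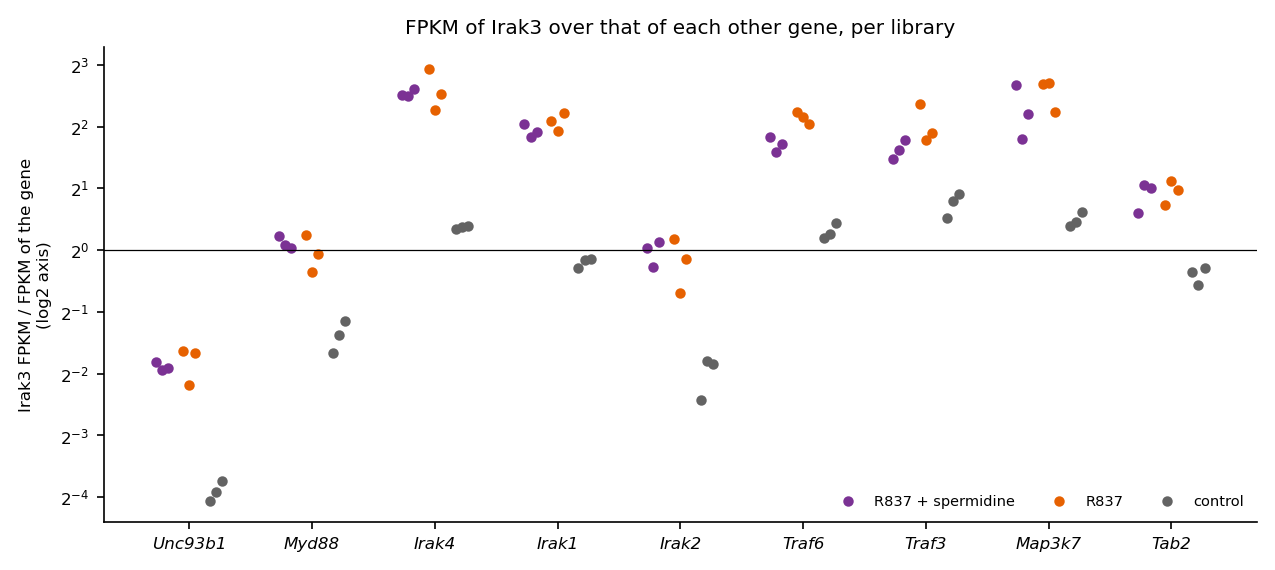
FPKM of Irak3 divided by that of each other gene in the same library (y axis, log2 scale; 1 marks equal FPKM). Each point is 1 library of R837 with spermidine, R837 or control. For all 9 genes both treated groups lie above the controls without overlap, and for Traf6 alone the libraries with spermidine lie apart from those with R837.

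The order of the 10 levels differed between the groups. Neighbours are called apart here where the ranges of mean ± SD did not overlap. With R837 and spermidine the order was Unc93b1, Irak2, Irak3, Myd88, Tab2, Traf3, Traf6, Irak1, Map3k7 and Irak4. The neighbours not apart were Irak2 and Irak3, Traf3 and Traf6, Irak1 and Map3k7, and Map3k7 and Irak4. Genes further from each other in the order can differ from this. The ranges of Irak1 (9.02 ± 0.497 FPKM) and Irak4 (5.93 ± 0.504 FPKM) did not overlap. Those of Irak2 (35.6 ± 5.83 FPKM) and Myd88 (31.8 ± 0.783 FPKM) did. With R837, Irak2, Myd88 and Irak3 followed Unc93b1 and were not apart, then came Tab2, and then Traf3, Irak1, Traf6, Map3k7 and Irak4, with no neighbours apart. In controls Irak3 held the sixth place, below Irak1 and above Traf6, apart from both, and Traf3 was the lowest.

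Adding spermidine to R837 left none of the 10 past the threshold in either direction (limma), against 5.6% of all genes called higher and 8% lower. At an unadjusted limma p below 0.05 there were 2, Myd88 and Traf6, but the share of all genes at that level was not computed. These were also the 2 whose libraries did not overlap, against 32.9% of all genes. The median log2 change of the 10 was -0.12, against -0.02 for all genes. Myd88 averaged 31.8 ± 0.783 FPKM with R837 and spermidine and 40.6 ± 4.06 FPKM with R837 (SD, n = 3 each). Its log2 change was -0.34 (95% interval -0.56 to -0.12; limma adjusted p = 0.0520). Myd88 was lower in all 3 libraries with spermidine than in any with R837. It passed without R837 replicate 1 as -0.42 (limma adjusted p = 0.0401) and in the test restricted to genes with a mean FPKM of at least 5 (0.0435), and stood at -0.19 with R837 replicate 1 alone (0.361).

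Traf6 averaged 10.5 ± 0.787 FPKM with R837 and spermidine and 8.86 ± 0.919 FPKM with R837, a log2 change of 0.22 (95% interval 0.02 to 0.43; limma adjusted p = 0.140). For the brake Irak3, the means were 34.4 ± 1.71 FPKM with R837 and spermidine and 39.2 ± 4.20 FPKM with R837. The log2 change of -0.18 had a 95% interval of -0.39 to 0.03 (limma adjusted p = 0.243). It was -0.26 without R837 replicate 2 (limma adjusted p = 0.0747), -0.17 without replicate 3 (0.318), -0.11 without replicate 1 (0.498) and -0.33 with R837 replicate 1 alone (0.108). Irak2 stood at -0.35, with an interval of -0.76 to 0.05 (limma adjusted p = 0.223), at -0.20 without R837 replicate 2 (0.478) and at -0.11 with R837 replicate 1 alone (0.791). The other 6 lay between -0.13 (Tab2, interval -0.56 to 0.31) and 0.19 (Traf3, interval -0.09 to 0.46), and their intervals include 0. With R837 replicate 1 alone Tab2 stood at -0.47 and Traf3 at 0.37 (limma adjusted p = 0.244 and 0.206). Without R837 replicate 2 Traf6 was 0.14 (0.243). Irak3 relative to the other 9 was higher with R837 and spermidine than with R837 for 2 and lower for 7, with a median ratio of ratios of 0.961. Only against Traf6 did the libraries not overlap, at 3.55, 3.0 and 3.31 with R837 and spermidine and 4.69, 4.47 and 4.12 with R837.

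**Figure D4:**
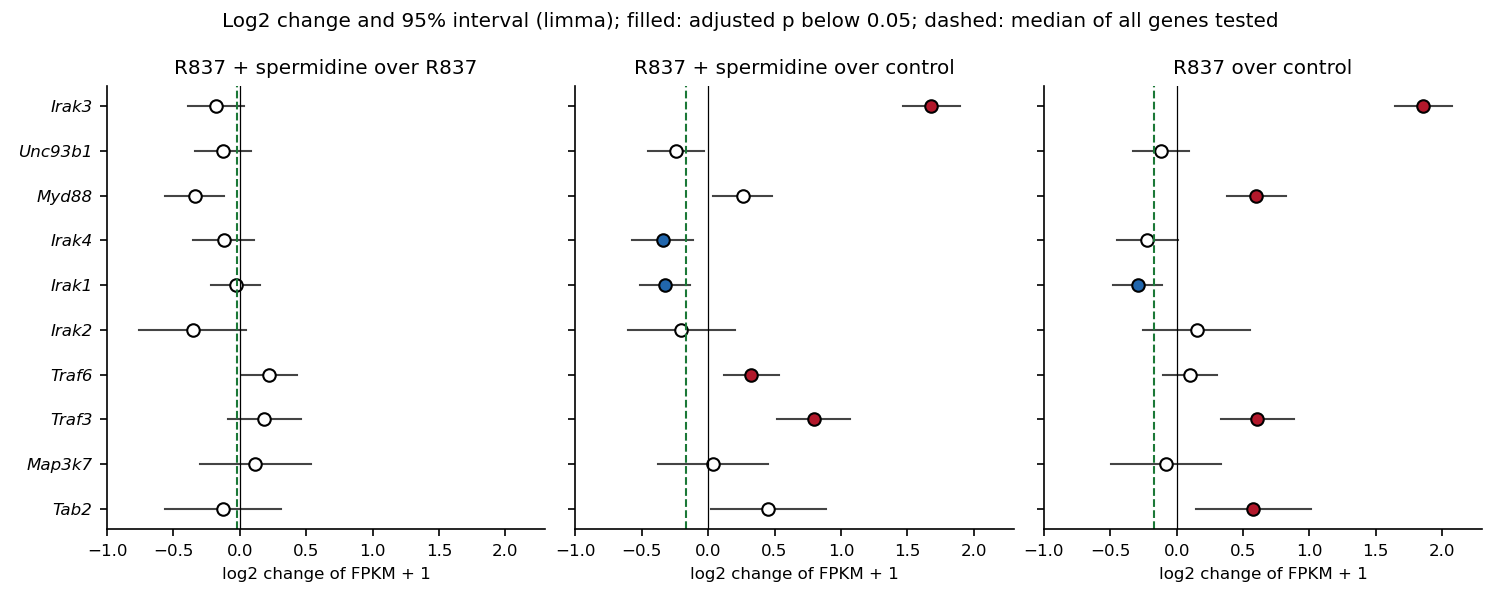
Log2 change of FPKM + 1 (x axis) with its 95% interval for each of the 10 genes, in R837 with spermidine over R837, R837 with spermidine over control, and R837 over control. Filled points passed the limma adjusted p of 0.05, red higher and blue lower, and dashed lines mark the median of all genes tested. Irak3 lies at 1.68 and 1.86 over control, apart from the other 9, and no point is filled for spermidine over R837.

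The combination was also set against the controls, which it shares with the comparison of R837 alone. Of the 10 genes 3 were higher and 2 lower, against 14.1% and 32.7% of all genes, and 8 did not overlap, against 62.9% of all genes. Irak3 rose by 1.68 ± 0.09 on the log2 scale (SE; limma adjusted p = 2.35e-06) and Traf3 by 0.79 ± 0.12 (0.000812), the values with R837 alone being 1.86 and 0.61. Traf6 rose by 0.32 (limma adjusted p = 0.0171), a call lost without control replicate 1 or 3 or replicate 2 of the combination (0.0516, 0.0556 and 0.0649). Irak1 fell by 0.33 and Irak4 by 0.34 on the log2 scale (limma adjusted p = 0.0103 and 0.0209), against a median of -0.17 over all genes. Neither fall passed with median-of-ratios scaling (0.212 and 0.213) or quantile normalization (0.0577 and 0.119), and that of Irak4 did not pass without control replicate 2 or 3 or replicate 3 of the combination (0.0625, 0.0703 and 0.0779). Myd88 stood at 0.26 (limma adjusted p = 0.0552), Tab2 at 0.45 (0.0816) and Unc93b1 at -0.24 (0.0599), and did not pass. Myd88 did pass as 0.45 with median-of-ratios scaling, 0.29 with quantile normalization and 0.28 as TPM (limma adjusted p = 0.00524, 0.0311 and 0.0479). It also passed when only the 2 groups were fitted (0.0318) and without control replicate 1, R837 replicate 1 or R837 replicate 2 (0.0359, 0.0432 and 0.0301). Tab2 passed as 0.64 (limma adjusted p = 0.0289) once scaled by median of ratios, with only the 2 groups (0.0447) and without R837 replicate 2 (0.0470). Unc93b1 passed as -0.37 with quantile normalization (limma adjusted p = 0.0129), with only the 2 groups (0.00863), with the replicate number as a block (0.0436) and without R837 replicate 2 or 3 (0.00668 and 0.0410).

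Of 70 other genes of the pathway 66 were tested, Tlr3, Sarm1, Sigirr and Map2k6 being too low. With R837 over control 25 of the 66 were higher and 12 lower, against 13.6% and 29.5% of all genes, with a median log2 change of 0.06 against -0.17. With spermidine over R837, 3 were higher and 9 lower, against 5.6% and 8% of all genes. Without R837 replicate 2, replicate 3 or both, the R837 counts were 23 to 27 higher and 11 to 12 lower, and those with spermidine 3 to 5 higher and 8 to 10 lower. These shares of all genes are the background of each list count that follows. Without R837 replicate 2, or without replicate 3, some small counts moved by over 1.5 times. The R837 calls became 2 lower in the MAP kinase list without replicate 3 and 2 higher in the TAK1 and IKK list without replicate 2. The calls with spermidine became 4 higher among endosomal receptors and their folding, transport and trafficking genes without replicate 3. Among ubiquitin enzymes they became 1 higher without replicate 2. They also became 1 higher in the MAP kinase list without replicate 2. The genes that joined these calls are not named here. Other negative regulators listed for the pathway were higher in 8 of 14 and lower in 2 with R837, so Irak3 was not the only brake to rise. Tnfaip3, which encodes the ubiquitin-editing enzyme A20, averaged 163 ± 20.3 FPKM with R837 and 24.1 ± 1.23 FPKM in controls, a log2 rise of 2.70 ± 0.18 (SE; limma adjusted p = 3.68e-06). Zc3h12a, the RNase Regnase-1, averaged 141 ± 17.8 FPKM with R837 and 21.1 ± 0.422 FPKM in controls. Tnfaip8l2, the inhibitor TIPE2, went the other way, with 6.78 ± 0.408 FPKM with R837 and 30.4 ± 2.3 FPKM in controls, a fall of 2.01 on the log2 scale (limma adjusted p = 2.54e-07). Once spermidine was added to R837, 4 of these 14 brakes were lower and none higher. Tnfaip3 fell to 79.1 ± 23.1 FPKM with R837 and spermidine, against 163 ± 20.3 FPKM with R837 (limma adjusted p = 0.00599, or 0.10 with R837 replicate 1 alone). Tnip1, the A20-binding protein ABIN1, fell by 0.45 on the log2 scale (limma adjusted p = 0.00634).

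Among ubiquitin enzymes and other TRAF genes 8 of 14 were higher with R837 than in controls and 1 was lower. Traf1, an adaptor of TNF receptors, averaged 51.7 ± 6.85 FPKM with R837 and 6.45 ± 0.138 FPKM in controls, a log2 rise of 2.82 (limma adjusted p = 5e-08). Traf5 rose by 1.47 and Peli1, a Pellino ligase that works with the IRAKs, by 1.15, while Peli2 fell by 0.69. Spermidine over R837 gave 2 falls, as Traf1 fell by 0.74 and Tifa, an adaptor that binds TRAF6, by 0.63 (limma adjusted p = 0.00158 and 0.00348). The other 12 did not pass.

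Of the other adaptors and modulators near the receptors (Tirap, Ticam1, Ticam2, Pik3ap1 and Tollip), 1 of 5 tested was higher with R837 (3 with median-of-ratios scaling) and none lower. The call was Ticam2, the TRAM adaptor that joins Toll-like receptor 4 to TRIF. It averaged 35.1 ± 1.44 FPKM with R837 and spermidine, 60.2 ± 6.46 FPKM with R837 and 17.3 ± 1.64 FPKM in controls. Its log2 changes were 1.74 with R837 over control and -0.76 with spermidine over R837 (limma adjusted p = 1.6e-06 and 0.00193). Endosomal Toll-like receptors and their folding, transport and trafficking genes were lower in 5 of 9 and higher in 1 with R837. With median-of-ratios scaling 3 were lower. Tlr7, which encodes the receptor for R837, stood at -0.22 with R837 over control and did not pass (limma adjusted p = 0.223). Tlr13, a receptor for bacterial ribosomal RNA, averaged 29.7 ± 12 FPKM with R837 and 56.2 ± 0.895 FPKM in controls, a fall of 0.99 on the log2 scale (limma adjusted p = 0.0149). The size rested on R837 replicate 2: the change was -0.61 without it and -1.21 without replicate 3 (limma adjusted p = 0.000769 and 0.00701). Tlr9, the DNA receptor, was the gene that rose, by 0.51. Tlr13 averaged 51.6 ± 4.91 FPKM with R837 and spermidine, a log2 change of 0.86 over R837 that did not pass (limma adjusted p = 0.0630). That change was not checked with libraries left out. With spermidine over R837, the chaperone gene Hsp90b1 was higher by 0.88 and Ap3b1, which sorts the receptors among endosomes, by 0.29 (limma adjusted p = 0.0250 and 0.0201). Each of these calls was lost when R837 replicate 1 or replicate 2 or 3 with spermidine was left out, at limma adjusted p of 0.0540, 0.0756 and 0.0838 for Hsp90b1 and 0.0507, 0.0721 and 0.0751 for Ap3b1. Hsp90b1 was also lost without R837 replicate 2 (0.0542), and both were lost with R837 replicate 1 alone (0.110 and 0.0625).

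Next to Map3k7 and Tab2, the TAK1 partners and IKK subunits were higher in 1 and lower in 1 of 5 with R837. Ikbkb, the catalytic subunit IKKβ, rose by 0.44, and Tab1, the activator of TAK1, fell by 0.55. With spermidine over R837, 1 IKK subunit rose and 1 fell. Ikbkg, the regulatory subunit NEMO, averaged 11.8 ± 2.31 FPKM with R837 and spermidine and 5.13 ± 0.920 FPKM with R837 (log2 change 1.06; limma adjusted p = 0.0109). Ikbkb averaged 3.83 ± 0.0882 FPKM with R837 and spermidine and 5.94 ± 0.232 FPKM with R837 (log2 change -0.52; 0.00236). In the MAP kinase cascade 3 of 12 were higher and 1 was lower with R837, with Map3k8, the TPL2 kinase, up by 0.94 and its partner Tnip2 down by 0.63. With spermidine over R837, 0 of the 12 passed in limma. At an unadjusted limma p below 0.05 there were 2, a share not computed over all genes. In the TRAF3 and interferon regulatory factor arm 3 of 7 were higher and 2 lower with R837, or 4 and 0 with median-of-ratios scaling. Tank, a TRAF3-binding adaptor, rose by 0.68 and the kinase gene Tbk1 by 0.51. With spermidine over R837, 1 of 7 was lower, the kinase gene Ikbke, at 25.9 ± 0.784 FPKM with R837 and spermidine and 49.1 ± 2.68 FPKM with R837 (limma adjusted p = 0.000197).

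**Figure D5:**
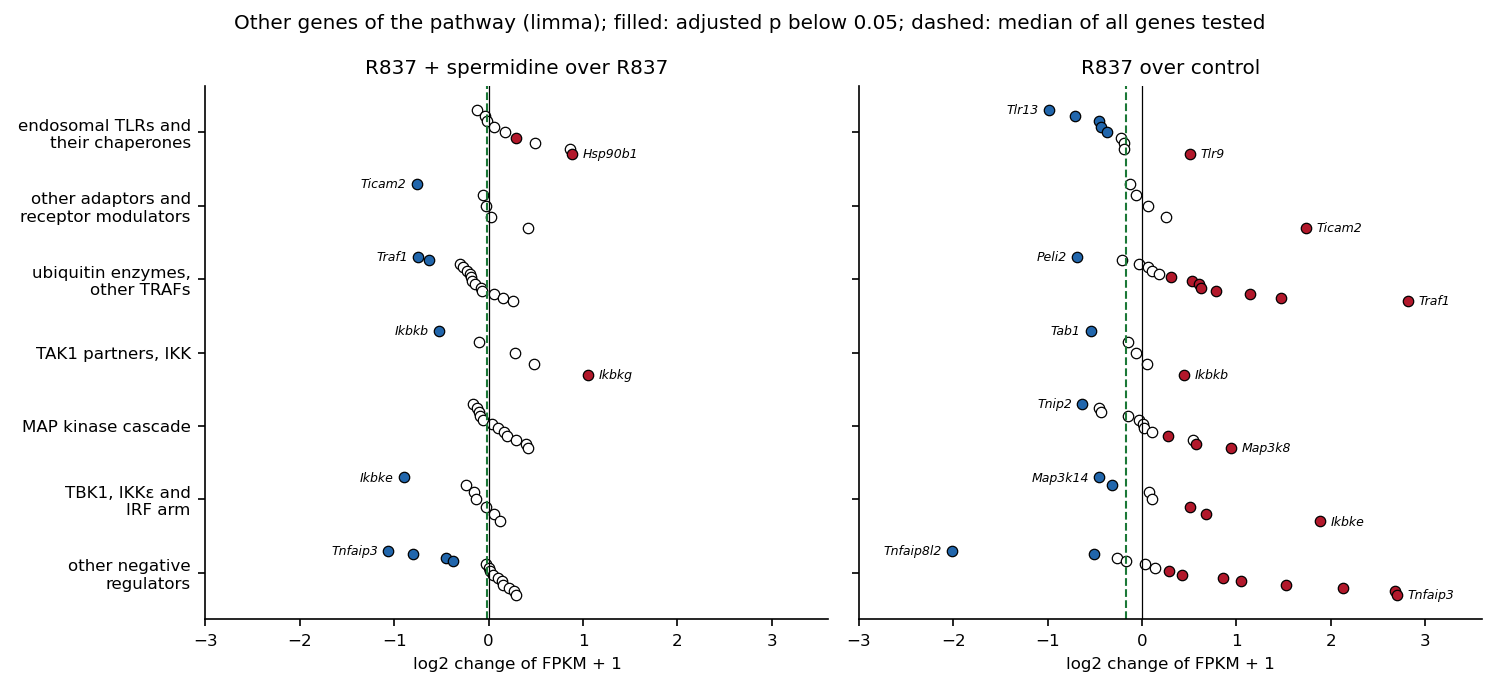
Log2 change of FPKM + 1 (x axis) of the 66 other pathway genes tested, by list, for R837 with spermidine over R837 and for R837 over control. Filled points passed the limma adjusted p of 0.05, with the lowest and highest of each list named where they passed. Traf1, Tnfaip3 and Zc3h12a lie furthest right with R837 over control, at 2.82, 2.70 and 2.68.

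Over the 9 libraries, the genes whose log2(FPKM + 1) followed that of Irak3 most closely, of 5854 compared, were Itpripl2, Abi1, Cxcl2, Tarm1 and Cxcl3, with Pearson's r of 0.996 to 0.997. For Myd88 they were Gsdmd, Plau, Grap, Phgdh and Myo1g, with r of 0.965 to 0.974. Grap, for example, had 7.47, 8.41 and 8.88 FPKM with R837 and spermidine, 14.7, 20.9 and 17.0 FPKM with R837, and 5.44, 5.33 and 4.57 FPKM in controls, with the 3 groups apart as for Myd88. These correlations are descriptions over libraries that fall into 3 groups, and the genes of a library share its depth.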

How the data were processed

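Gene values were FPKM, per the file headers, 1 value per gene and library for 52550 versioned Ensembl identifiers. The submitters' processing notes list HISAT2, StringTie, mm8 and mm10 but no version or role, and the annotation and any filter on the deposited FPKM values are not given in the sources used here. FPKM holds no counts, so no count test was run. Depth came from the step between low values of single-transcript genes, which was only partly resolved. All 37 mitochondrial genes are listed at 0, so a 0 need not mean absence.

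Identifiers without version were matched to mouse symbols (99.7%) and summed per symbol. Positions are those of GENCODE M21 on GRCm38. Genes with an FPKM of at least 1 in 3 of 9 libraries were tested on log2(FPKM + 1), a scale that understates changes of low genes, in 1 limma fit (limma 3.58.1, R 4.3.3, mean-variance trend) of all 9 libraries with 3 two-sided contrasts. P-values were adjusted by Benjamini-Hochberg over all genes tested in each contrast. The fit was tested on simulated data. The 10 genes, the pathway and marker lists and the rule for named genes were chosen with earlier results of these data known. Named pathway genes came from up to 3 per direction, list and contrast with the largest changes past the threshold in the first 2 contrasts, and the text gives values for a selection of them made after their values were seen. Alternatives were other pseudocounts, filters, scalings and fits, each library left out in turn and, chosen after seeing the data, R837 replicate 1 alone. Protein sequences were not used here.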

Additional observations from a re-analysis of the deposited data

How the results depend on the processing

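The rises of Irak3 and Myd88 with R837 over control passed under every alternative run, with limma adjusted p of at most 2.9e-05 and 0.0221. FPKM is relative to all fragments mapped in a library, and the FPKM sums were 310220 to 326222. Median-of-ratios scaling raised the median log2 change of all genes by 0.15 with R837 over control. With R837 and spermidine over control it raised it by 0.16. The share of calls that were higher then moved from 31.6% to 52.4% and from 30.1% to 52.5% (43.6% and 43.8% with quantile normalization). Falls of Irak1 and Irak4 thus depend on the scaling. Depth is known only roughly, so the counting error behind each value is approximate.

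With R837 over control, all genes called lower numbered 1842 with a mean FPKM of at least 5 and 1941 with median-of-ratios scaling, against 3477, and 0 of the 10 genes were lower with that scaling. Unc93b1 and Map3k7 changed sign with it, at 0.065 and 0.079, and Map3k7 with quantile normalization, at 0.048. Irak2 did so with R837 replicate 1 alone, at -0.091. Leaving out each library in turn gave 0 to 3 of the 10 lower, Irak2 between -0.0041 and 0.29 and Map3k7 between -0.22 and 0.057.

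With spermidine over R837, 1 of the 10 (Myd88) was lower with a mean FPKM of at least 5. All genes called higher and lower were 301 and 456 when only the 2 groups were fitted and 416 and 410 with R837 replicate 1 alone, against 659 and 942, and Irak4 stood at 0.056 with that library alone. Leaving out each library gave 0 to 1 of the 10 lower, 290 to 739 of all genes higher and 459 to 933 lower, Irak1 between -0.090 and 0.028, Tab2 between -0.30 and 0.045 and Map3k7 between -0.068 and 0.28.

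With R837 and spermidine over control, all genes called lower were 2021 with a mean FPKM of at least 5 and 2168 with median-of-ratios scaling, against 3850. Of the 10, 5 were higher and 0 lower with that scaling, 1 lower with quantile normalization, and 5 higher when only the 2 groups were fitted. Leaving out each library gave 2 to 5 of the 10 higher and 1 to 3 lower, and Map3k7 between -0.15 and 0.20. With FPKM + 1 the mean log2 ratio of Irak3 to Irak1 with spermidine was 1.82 (1.93 without the added 1), to Irak4 with spermidine 2.35 (2.54), to Irak4 in controls 0.33 (0.37) and to Traf6 with R837 2.03 (2.14). Adding 1 to both FPKM values always draws their log2 ratio closer to zero. The cause of the other shifts with the processing was not tested.

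With the replicate number as a block, calls among the 10 were 4 higher and 1 lower for R837 over control, 0 and 0 for spermidine over R837, and 3 and 3 for the combination over control, where Unc93b1 joined (limma adjusted p = 0.0436). The block gave 470 genes higher and 661 lower for spermidine over R837. Whether the numbers pair the libraries is not stated. Deviations from the group mean of same-numbered R837 and control libraries correlated at -0.03, 0.13 and -0.03. Those of R837 with spermidine and R837 libraries correlated at 0.04, -0.06 and 0.05, and those of the combination and control at -0.09, 0.16 and 0.02. With 3 libraries per group such values cannot decide whether libraries shared an animal, culture or batch.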
